A study of Mus musculus with 2 samples.

Results

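The genes described here are 33 immediate early and dissociation response genes, taken by symbol from a fixed list, of 32285 genes in the count matrices. All 33 symbols were found. They were followed in mouse lung cells that were profiled by single-cell RNA sequencing on the 10x Genomics platform, which counts each captured transcript once by a unique molecular identifier (UMI) near its 3′ end, so that counts of different genes need no length correction. The donor library held CD45-, tdTomato-positive cells, which carry the fluorescent label of the transplanted lung cell suspension. The recipient library held CD45-, tdTomato-negative cells of the C57Bl hosts. Both came from the same pool of 3 chimeric lungs, taken 6 months after transplantation, enzymatically dissociated and sorted. Each group is therefore 1 library, with no replicate, and no test of donor against recipient was possible. All intervals below are exact 95% intervals for counting error alone and do not cover variation between cells, mice, sorts or libraries.

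Immediate early genes are switched on within minutes of a stimulus without new protein synthesis, mostly through serum response factor bound to CArG boxes, through CREB bound to cAMP response elements, and through NF-κB. Many encode transcription factors, such as the Fos and Jun subunits of AP-1, and others encode proteins that end the response by removing phosphate from kinases or by destroying short-lived mRNAs. In lung and other solid tissues they are also known to be switched on by warm enzymatic digestion and sorting, so that their level in dissociated cells mixes a state in the tissue with a response to handling.

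Promoter sequence was examined in the 250 bases before the RefSeq transcript start on GRCm38.p6, for the 28 of 33 genes with an entry in the RefSeq table used. Sequences are shown for 3 of the genes that carried a CArG box or a full cAMP response element in this window. Of these, Dusp5 had the most cell type restricted level of the list, while Btg2 and Dusp1 were abundant in each type. Jun, Junb, Fos, Jund and Ier3 had higher mean levels and no match to the motifs searched. Capitals mark a CArG box in Dusp5 and the full cAMP response element TGACGTCA in Btg2 and Dusp1.
Dusp5, chr19:53528895-53529108, plus strand: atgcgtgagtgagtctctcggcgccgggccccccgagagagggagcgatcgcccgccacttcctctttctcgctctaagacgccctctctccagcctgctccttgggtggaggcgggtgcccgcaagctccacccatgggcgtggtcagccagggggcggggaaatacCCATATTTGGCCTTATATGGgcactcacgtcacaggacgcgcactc
Btg2, chr1:134079156-134079405, minus strand: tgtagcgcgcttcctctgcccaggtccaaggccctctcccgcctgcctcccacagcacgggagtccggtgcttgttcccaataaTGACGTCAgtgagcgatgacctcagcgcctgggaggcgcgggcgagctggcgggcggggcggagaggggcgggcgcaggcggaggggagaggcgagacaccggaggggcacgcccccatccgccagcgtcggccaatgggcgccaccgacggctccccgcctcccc
Dusp1, chr17:26508520-26508722, minus strand: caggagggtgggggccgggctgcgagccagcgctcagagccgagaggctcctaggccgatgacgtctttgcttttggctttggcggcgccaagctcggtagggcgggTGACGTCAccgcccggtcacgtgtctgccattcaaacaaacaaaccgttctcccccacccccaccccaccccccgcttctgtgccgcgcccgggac
Dusp5 held 2 adjacent CArG boxes, starting 82 and 72 bases before the start. The element of Btg2 began 166 bases before the start and that of Dusp1 began 143 bases before it. Bases that an annotated exon of the same gene covers were left off, 36 in Dusp5 and 47 in Dusp1. Searched on both strands, the CArG box was present in 3 of the 28 genes (10.7%; Egr2, Zfp36 and Dusp5), against 1.62% of all 27025 genes in the table. TGACGTCA was present in 4 (14.3%; Dusp1, Btg2, Ppp1r15a and Maff), against 1.77% of all genes. The AP-1 site TGANTCA was present in 2 (7.14%; Zfp36l1 and Csrnp1), against 7.82% of all genes. A match describes letters in this window only.

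The donor library held 37997269 UMIs in 6319 barcodes and the recipient library 26201315 UMIs in 3784 barcodes, of which 4987 and 3311 passed the filter on genes, UMIs and mitochondrial share. Cells were assigned by UMIs of fixed marker genes, none of them an early gene, and are named by the type those markers define, for example aerocyte-like. In all, 5 types had at least 50 cells in both libraries and were compared. These were general capillary-like endothelium (2461 donor and 399 recipient cells), aerocyte-like endothelium (1491 and 599), venous-like endothelium (166 and 96), alveolar type 1-like epithelium (125 and 191) and pericyte-like cells (53 and 529). Lymphatic-like (73), alveolar fibroblast-like (566), adventitial fibroblast-like (81) and myofibroblast-like cells (136) were numerous enough in the recipient library alone, and arterial-like cells (97 donor and 35 recipient) are described without comparison. The numbers of cells follow the sort and are not a result. Cdh5, an endothelial cadherin, reached 2080 CPM in donor and 1749 CPM in recipient general capillary-like cells, Epcam 212 CPM in donor and 233 CPM in recipient alveolar type 1-like cells, and Pdgfrb 2087 CPM in donor and 2112 CPM in recipient pericyte-like cells, while Ptprc, which encodes CD45, was at 0 in venous-like, alveolar type 1-like and pericyte-like cells of both libraries.

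The libraries shared 816 barcodes, with a median of 760 UMIs in the donor copy and 10630 in the recipient copy. Of the 125 donor alveolar type 1-like cells, 79 carried such a barcode, and 76 of those were alveolar type 1-like in the recipient library too. In that type the median depth was 1509 UMIs in donor and 14550 UMIs in recipient cells. The main alveolar type 1-like levels and calls are therefore given with all barcodes and, beside them or in a paragraph of their own, without the shared ones. In the other 4 compared types, 1 to 7 donor cells and 5 to 45 recipient cells were affected. Among types of the recipient library alone, shared barcodes marked 63 of 81 adventitial fibroblast-like and 169 of 566 alveolar fibroblast-like cells. They also marked 29 of 136 myofibroblast-like and 12 of 73 lymphatic-like cells. Levels of single genes in these types are given with all barcodes only.

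Summed, the 33 genes differed several-fold between cell types. The venous-like endothelium stood highest among donor types, with 427 of every 10,000 UMIs, and the alveolar type 1-like cells lowest, with 155. Among the recipient types, myofibroblast-like cells stood highest with 553 (548 to 558) per 10,000, ahead of venous-like cells with 508 (503 to 513) and alveolar fibroblast-like cells with 490 (487.5 to 492). Adventitial fibroblast-like cells had 339 per 10,000 and lymphatic-like cells 266. The recipient alveolar type 1-like cells were again lowest with 145 per 10,000. The counting intervals of neighbouring types in this order did not overlap, but they do not cover the spread between cells. Over recipient cells the standard deviation was 231.5 per 10,000 in 136 myofibroblast-like, 236 in 96 venous-like and 247 in 566 alveolar fibroblast-like cells. The order of types was not tested. In the donor library, the sum was 332 per 10,000 in arterial-like cells, between the 362 of general capillary-like cells and the 227 of pericyte-like cells.

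Without shared barcodes, 3 levels moved widely. The recipient alveolar type 1-like sum was 83.4 per 10,000 instead of 145, with 45 cells left. The recipient adventitial fibroblast-like sum was 206 instead of 339, and the alveolar fibroblast-like sum was 425 instead of 490. The donor alveolar type 1-like sum was 136 instead of 155, with 46 cells left. The role of depth and of the shared barcodes in these levels was not tested.

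**Figure D1:**
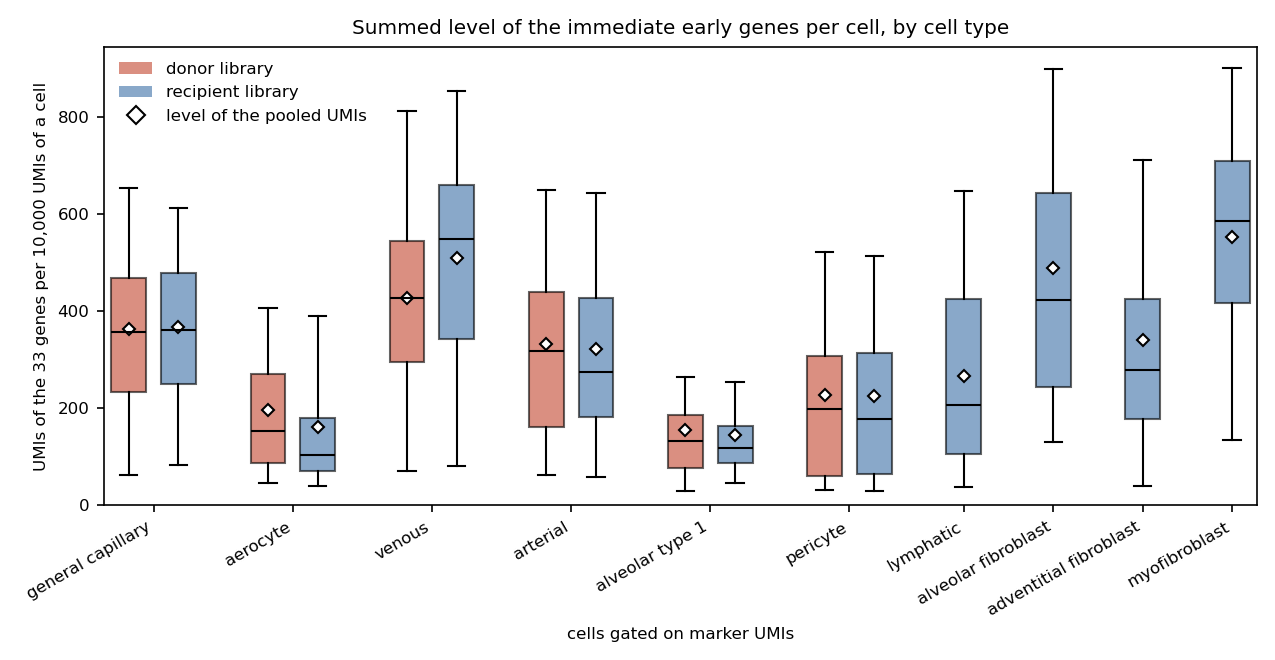
Summed UMIs of the 33 genes per 10,000 UMIs of a cell, by cell type, for the donor (red) and recipient (blue) libraries. Boxes span the quartiles over cells with the median as a line, whiskers reach the 5th and 95th percentiles, and diamonds give the level of the pooled UMIs; cells are not replicates. The donor aerocyte-like median of 153 lies above the recipient median of 103, and the donor venous-like median of 427 lies below the recipient median of 548.

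The spread between cells of 1 type was wide and was of the same order in both libraries. In pericyte-like cells the 5th and 95th percentiles were 30.03 and 522 per 10,000 in the donor library and 28.8 and 514 per 10,000 in the recipient library. In general capillary-like cells they were 61.5 and 653 in the donor library and 82.2 and 612 in the recipient library. Alveolar type 1-like cells spanned the fewest UMIs, with 29.5 and 264 in the donor library and 44.4 and 254 in the recipient library.

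AP-1 genes made up much of the sum. Jun, the partner subunit with the highest mean level of the list (3560 CPM over the compared types and both libraries), had 5239 CPM in donor and 4850 CPM in recipient general capillary-like cells, 3741 CPM in donor and 3472 CPM in recipient aerocyte-like cells, and 5449 CPM in donor and 5388 CPM in recipient venous-like cells. It had 992 CPM in donor and 847 CPM in recipient alveolar type 1-like cells, and 2779 CPM in donor and 2843 CPM in recipient pericyte-like cells. Jun was thus high in blood endothelium and low in alveolar type 1-like cells in both libraries, and recipient fibroblast types had 4096 to 5210 CPM.

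Fos, the subunit that pairs with Jun and cannot bind DNA by itself, was distributed otherwise. It had 2419 CPM in donor and 2603 CPM in recipient general capillary-like cells, 1126 CPM in donor and 910.5 CPM in recipient aerocyte-like cells, and 4247 CPM in donor and 5630 CPM in recipient venous-like cells. It had 1494 CPM in donor and 1314 CPM in recipient alveolar type 1-like cells, and 3977 CPM in donor and 4041 CPM in recipient pericyte-like cells. The highest Fos level was 8129 CPM in recipient alveolar fibroblast-like cells. The ratio of Fos to Jun UMIs was 0.462 in donor and 0.537 in recipient general capillary-like cells and 0.301 in donor and 0.262 in recipient aerocyte-like cells, but 1.43 in donor and 1.42 in recipient pericyte-like cells and 1.51 in donor and 1.55 in recipient alveolar type 1-like cells. In venous-like cells the ratio was 0.780 in donor and 1.05 (1.002 to 1.09) in recipient cells, so that these fell on opposite sides of 1. Lymphatic-like endothelium of the recipient library had 2.21 (2.06 to 2.38), above each blood endothelial type.

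Junb, a Jun relative that weakens Jun activity on some targets, had 4208 CPM in donor and 4508 CPM in recipient general capillary-like cells, 2178 CPM in donor and 1580 CPM in recipient aerocyte-like cells, and 4749 CPM in donor and 6121 CPM in recipient venous-like cells. It had 910 CPM in donor and 677 CPM in recipient alveolar type 1-like cells, and 2286 CPM in donor and 2162 CPM in recipient pericyte-like cells. Its highest level was 8771 CPM in recipient myofibroblast-like cells, where it exceeded Jun 2.14-fold in UMIs. Jund, the most constitutive Jun gene, was the evenest of the AP-1 genes, with 1592 to 3517 CPM across donor types and 1665 to 3687 CPM across recipient types. Fosb had 410 to 1381 CPM across donor types and 284 to 1753 CPM across recipient types. Fosl1 was close to absent, with 12 donor and 2 recipient UMIs in general capillary-like cells, and Fosl2 stayed under 100 CPM except in recipient myofibroblast-like cells with 192 CPM (164.5 to 223).

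**Figure D2:**
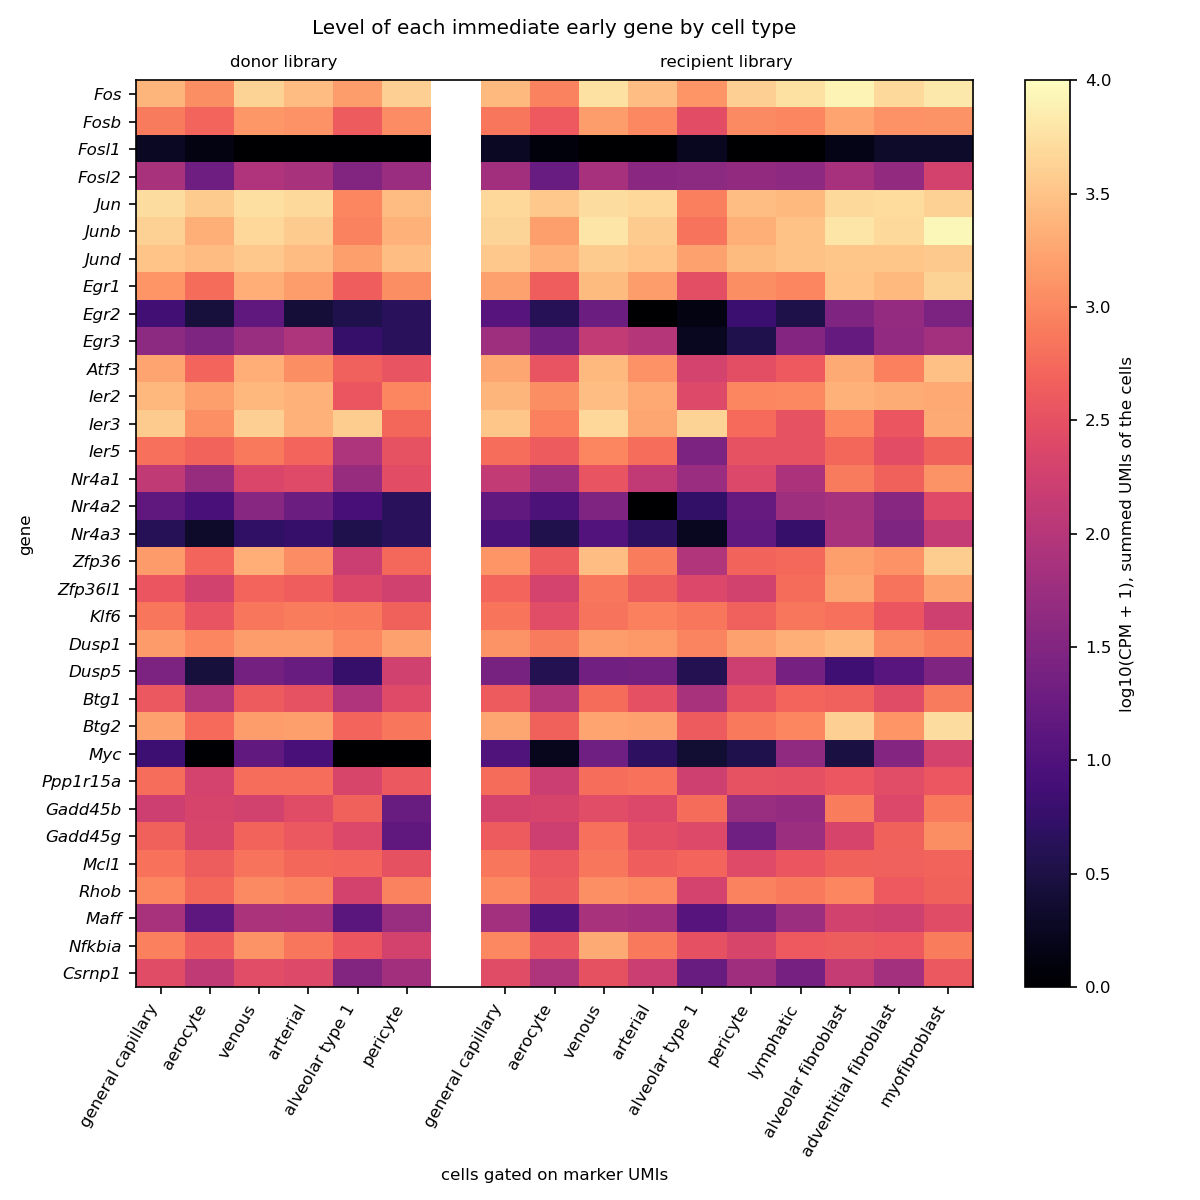
Level of each of the 33 genes (rows) in each cell type (columns), donor library at left and recipient library at right, as log10 of CPM plus 1 computed from the summed UMIs of the cells. Dusp5 is brightest in pericyte-like cells of both libraries, and Myc, Nr4a2 and Fosl2 are brightest in myofibroblast-like cells, a type compared in the recipient library alone.

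Among the other transcription factors, Egr1, a zinc finger factor induced by serum response factor, had 442 to 2100 CPM across donor types and 299 to 4284 CPM across recipient types, while Egr2 stayed under 50 CPM in each type. Egr3, a related factor induced by vascular endothelial growth factor in endothelium, was at low levels, 38.8 CPM in donor and 58.9 CPM in recipient general capillary-like cells and 52.0 CPM in donor and 135 CPM in recipient venous-like cells. It was represented by 2 donor and 2 recipient UMIs in alveolar type 1-like cells and by 1 donor and 7 recipient UMIs in pericyte-like cells. The stress factor Atf3 had 348 to 2115 CPM across donor types and 203 to 3007 CPM across recipient types. The orphan receptor Nr4a1 had 289 CPM in donor and 241 CPM in recipient pericyte-like cells, against at most 258 CPM in the other donor types, and reached 1258 CPM in recipient myofibroblast-like cells. Its relatives Nr4a2 and Nr4a3 were at 35.1 CPM or less in the donor types. Klf6, a zinc finger factor of injury responses, had its lowest level, 176.5 CPM (150 to 206), in recipient myofibroblast-like cells, where the summed list was highest. Dusp1 was also low there, with 832 CPM. Maff, a small Maf factor, had 12.1 to 81.3 CPM across donor types and 9.9 to 268 CPM across recipient types, and Csrnp1, a nuclear factor induced by Axin, 31.4 to 278 CPM across donor types and 17.4 to 390.5 CPM across recipient types.

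The Ier genes, of which Ier2 and Ier5 encode related nuclear proteins and Ier3 an unrelated one, differed between epithelium and vessels. Ier3, a regulator of survival signalling, had 3853 CPM in donor and 4230 CPM in recipient alveolar type 1-like cells, 3688 CPM in donor and 3373 CPM in recipient general capillary-like cells, and 3976 CPM in donor and 4703 CPM in recipient venous-like cells. It had 1187 CPM in donor and 874 CPM in recipient aerocyte-like cells, and 523 CPM in donor and 568 CPM in recipient pericyte-like cells. Ier3 was thus the leading gene of the list in the type with the lowest sum.

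Ier2, a nuclear protein of growth factor responses, had 355 CPM in donor and 250 CPM in recipient alveolar type 1-like cells, 2534 CPM in donor and 2401 CPM in recipient general capillary-like cells, 2480 CPM in donor and 2909 CPM in recipient venous-like cells, 1575 CPM in donor and 1144 CPM in recipient aerocyte-like cells, and 981 CPM in donor and 980 CPM in recipient pericyte-like cells. The ratio of Ier3 to Ier2 UMIs was 10.9 (9.17 to 12.9) in donor and 16.9 (15.7 to 18.3) in recipient alveolar type 1-like cells. Elsewhere it did not pass 1.62, with 1.45 in donor and 1.41 in recipient general capillary-like cells. Ier5 had 84.4 CPM in donor and 26.9 CPM in recipient alveolar type 1-like cells and 334 to 756 CPM in the other donor types.

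Without shared barcodes, with 46 donor and 45 recipient alveolar type 1-like cells left, Fos had 1129 CPM in donor and 357.5 CPM in recipient cells, and Jun 948.5 CPM in donor and 313 CPM in recipient cells. Junb had 851 CPM in donor and 323 CPM in recipient cells, and Jund 1411 CPM in donor and 1147 CPM in recipient cells. Ier3 had 3248 CPM in donor and 2681 CPM in recipient cells, and Ier2 315 CPM in donor and 194 CPM in recipient cells. The ratio of Fos to Jun UMIs was then 1.19 (0.984 to 1.44) in donor and 1.14 (0.804 to 1.63) in recipient cells, both holding 1, while that of Ier3 to Ier2 was 10.3 (8.04 to 13.4) in donor and 13.8 (10.0 to 19.7) in recipient cells against at most 1.62 in the other types with all barcodes. The 5th and 95th percentiles of the summed level were 21.6 and 210 per 10,000 in donor and 22.9 and 134 per 10,000 in recipient cells.

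Of the genes that restrain the response, Dusp1, a nuclear phosphatase of p38 and JNK kinases, had 975 to 1673 CPM across donor types and 780 to 2578 CPM across recipient types. Dusp5, a nuclear phosphatase of ERK (chr19:53529109-53542431, plus strand, protein-coding), had 182.5 CPM (137 to 239) in donor and 169 CPM (154 to 185) in recipient pericyte-like cells, against 26.8 CPM in donor and 23.7 CPM in recipient general capillary-like cells. Aerocyte-like cells had 1.77 CPM in the donor and 2.85 CPM in the recipient library. Among pericyte-like cells thinned to 2000 UMIs, 19.6% (9.82% to 33.1%) of 51 donor and 21.9% (18.4% to 25.7%) of 525 recipient cells had a Dusp5 UMI, against 0.337% of donor and 0.337% of recipient aerocyte-like cells, which were thinned to the same depth. Before thinning the shares were 37.7% of donor and 38.4% of recipient pericyte-like cells, and 1.41% of donor and 1.84% of recipient aerocyte-like cells.

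Zfp36, which encodes the mRNA decay factor tristetraprolin, had 164 CPM in donor and 90.0 CPM in recipient alveolar type 1-like cells, 1440 CPM in donor and 1308 CPM in recipient general capillary-like cells and 2087 CPM in donor and 2919 CPM in recipient venous-like cells. Zfp36l1, its paralog, had 179 to 520 CPM across donor types and 187 to 1779 CPM across recipient types. Its highest type was 2.90-fold above its lowest in the donor and 9.52-fold in the recipient library. It was thus more even than Zfp36, with 12.7-fold in the donor and 42.9-fold in the recipient library, but not even across recipient types. Nfkbia, the inhibitor that holds NF-κB in the cytoplasm, was highest in venous-like cells, with 1277 CPM in donor and 1952 CPM in recipient cells. The antiproliferative Btg2 had 516 to 1614 CPM across donor types and 414 to 5240 CPM across recipient types, and its relative Btg1 86.9 to 411.5 CPM across donor types.

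The stress genes Gadd45b and Gadd45g, which encode partners of stress kinases, were low in pericyte-like cells. These had 17.2 CPM of Gadd45b in donor and 53.1 CPM in recipient cells, and 13.8 CPM of Gadd45g in donor and 19.6 CPM in recipient cells. Recipient lymphatic-like cells were low too, with 46.9 CPM of Gadd45b on 20 UMIs, and 24 UMIs of Gadd45g. Gadd45b had 478 CPM (413.5 to 549) in donor and 601 CPM (573 to 631) in recipient alveolar type 1-like cells, against 204 CPM in donor and 208 CPM in recipient aerocyte-like cells. Ppp1r15a, a phosphatase subunit that restores translation after stress, had 199 to 616 CPM across donor types, the survival gene Mcl1 320 to 686 CPM and the small GTPase gene Rhob 193 to 1049 CPM. Myc, a transcription factor of cell growth, had at most 14.2 CPM in the donor types and 199 CPM (171 to 230) in recipient myofibroblast-like cells, where 20.6% (14.1% to 28.4%) of 136 thinned cells had a UMI, against 8.45% of lymphatic-like, 6.17% of adventitial fibroblast-like and 0.177% of alveolar fibroblast-like cells. Before thinning the shares were 41.2% in myofibroblast-like and 1.41% in alveolar fibroblast-like cells.

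A gene was counted as type-specific where its CPM in 1 type was at least 2-fold that in each other compared type, in both libraries. By that rule 2 of 32 genes were specific, Dusp5 to pericyte-like cells and Gadd45b to alveolar type 1-like cells, against 11.8% of all genes tested. Dusp5 was 6.82-fold above the second type of the donor library, general capillary-like cells. In the recipient library it was 5.88-fold above myofibroblast-like cells (28.7 CPM), the second type there, which was not among the 5 compared types. Over the 9 types of the recipient library the rule was met by 5 of 32 genes, against 18.8% of all genes tested. These were Dusp5 in pericyte-like cells, Egr3 in venous-like cells, and Fosl2 (192 CPM), Nr4a2 (261.5 CPM) and Myc (199 CPM) in myofibroblast-like cells. Gadd45b was not among them, because recipient alveolar fibroblast-like cells had 829 CPM. Without shared barcodes Gadd45b lost its call: it had 379 CPM in donor and 382 CPM in recipient alveolar type 1-like cells, 1.85-fold the donor aerocyte-like and 1.30-fold the recipient venous-like level, and Nr4a2 was called in venous-like cells in its place, as it was under a mean over cells. Donor arterial-like cells, which were not compared, had 272 CPM of Gadd45b. They had 82.9 CPM of Egr3, above the 52.0 CPM of donor venous-like cells. Recipient arterial-like cells, 35 in number, held 26 Egr3 UMIs among 269256 UMIs. They are outside the 9 types, so the Egr3 call leaves them out. In the donor library 21 of 33 genes had their highest level in venous-like cells. In the recipient library 15 of 33 had it in myofibroblast-like cells and 9 in venous-like cells. The lowest level fell in alveolar type 1-like cells for 14 genes in the donor and 18 genes in the recipient library. These counts are descriptions, given without the share of all genes. They include nearly absent genes, such as Fosl1 at 1.10 CPM in its highest recipient type.

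**Figure D3:**
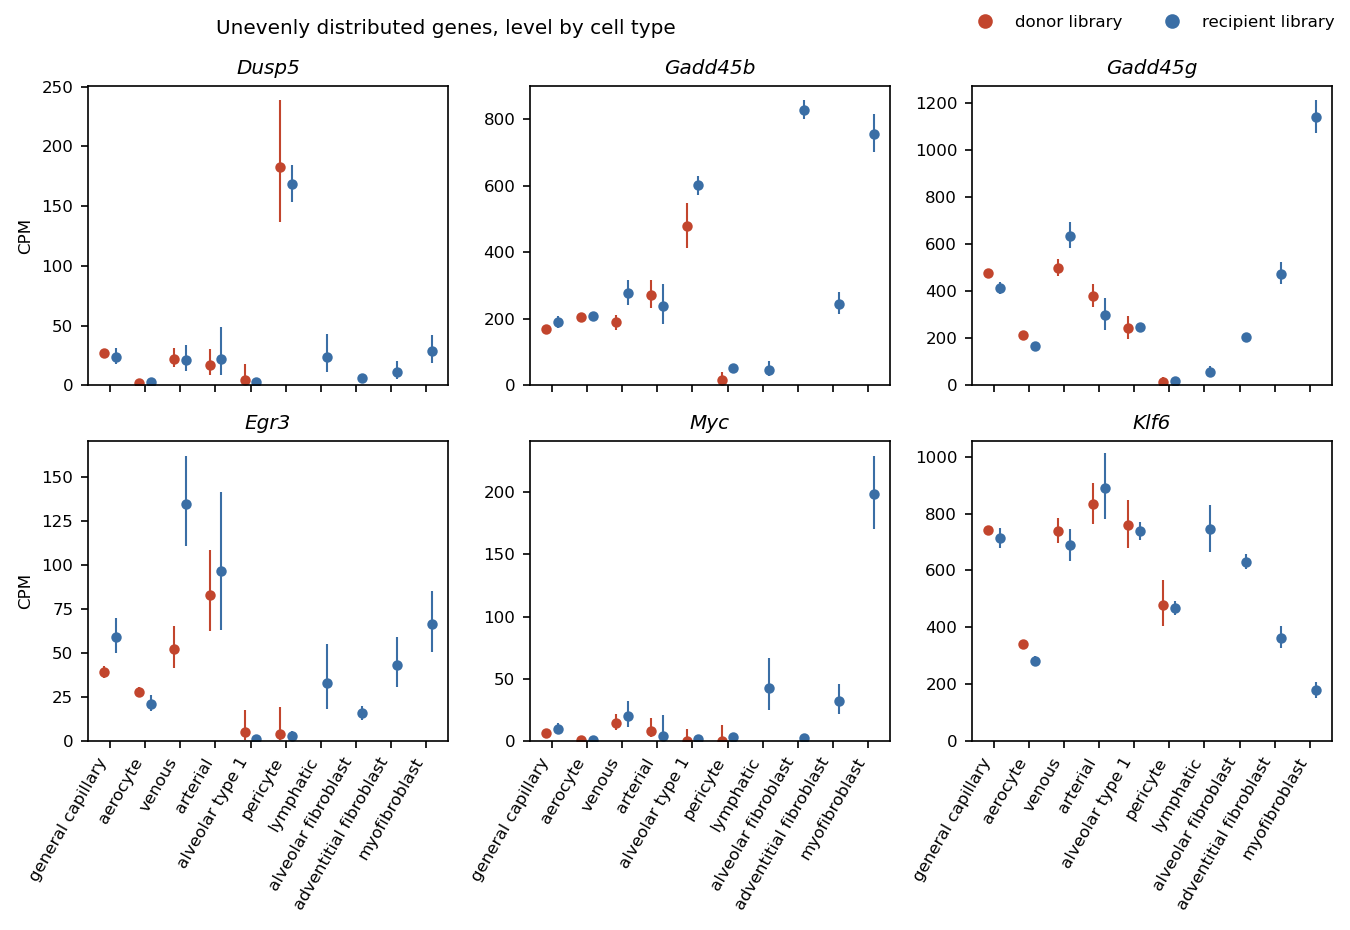
CPM of 6 unevenly distributed genes by cell type, with donor (red) left of recipient (blue) and bars for the exact Poisson 95% interval of counting error. Dusp5 stands at 182.5 CPM in donor and 169 CPM in recipient pericyte-like cells, and Klf6 is lowest, at 176.5 CPM, in recipient myofibroblast-like cells.

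Donor and recipient cells were then compared within each type. A gene was called where it had at least 20 UMIs over both libraries, differed at least 1.5-fold and had an interval that excluded equality. The words "above" or "below equality" below mean the interval alone. An interval excludes equality more readily where a gene has many UMIs. The shares of all genes cover every gene with at least 20 UMIs and are not matched to the list in UMIs. In general capillary-like cells the sum was 362 per 10,000 in donor and 366 in recipient cells, a ratio of 0.989 (0.982 to 0.996). None of 32 genes was called higher in donor cells, against 3.66% of all genes, and 3 were called lower, against 6.5% of all genes. Egr3 was lower at 38.8 CPM in donor and 58.9 CPM in recipient cells (0.659-fold, 0.546 to 0.7996). The other called genes were at low levels, Egr2 with 6.38 CPM in donor and 10.6 CPM in recipient cells and Nr4a3 with 3.08 CPM in donor and 8.48 CPM in recipient cells. Both had higher levels in recipient fibroblast types, 46.3 CPM of Egr2 in adventitial fibroblast-like and 139 CPM of Nr4a3 in myofibroblast-like cells. The 6 alveolar fibroblast markers, 3 of them detected in donor and 6 in recipient general capillary-like cells, summed to 0.0280 per 10,000 in donor and 1.35 per 10,000 in recipient cells, and their part in these calls was not tested. By the interval alone 8 genes were above equality, against 9.61% of all genes, and 13 below it, against 12.3% of all genes. The 6 genes with the highest mean level in the list lay from 0.929-fold for Fos to 1.09-fold for Ier3, and Egr1 was at 0.803-fold (0.776 to 0.832).

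In aerocyte-like cells the sum was higher in the donor library, at 196 per 10,000 in donor and 160 per 10,000 in recipient cells, a ratio of 1.23 (1.22 to 1.24). The difference was spread over the list: 21 of 31 genes were above equality, against 9.39% of all genes, and 2 were below it, against 11.0% of all genes. The median log2 ratio of the list was 0.30, beside -0.02 over all genes. Junb differed 1.38-fold (1.34 to 1.41), Ier2 1.38-fold (1.34 to 1.42), Ier3 1.36-fold (1.31 to 1.41), Jund 1.25-fold (1.22 to 1.27) and Fos 1.24-fold (1.19 to 1.28). Jun differed least of these, 1.08-fold (1.06 to 1.10). Only Atf3 passed the 1.5-fold limit upward, against 1.46% of all genes, with 520 CPM in donor and 345 CPM in recipient cells (1.51-fold, 1.43 to 1.59). Nr4a3 was called lower, against 3.65% of all genes, on 15 donor and 12 recipient UMIs.

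Per cell, the donor aerocyte-like distribution differed from the recipient one mainly in its middle. The median was 153 per 10,000 in donor and 103 in recipient cells and the upper quartile 270 and 180, whereas the 95th percentile was 406 and 389. The general capillary markers summed to 3.92 per 10,000 in donor and 2.79 per 10,000 in recipient aerocyte-like cells, the median depth was 8886 UMIs in donor and 7584 UMIs in recipient cells, and their part in the difference was not tested.

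Venous-like cells differed the other way. The sum was 427 per 10,000 in donor and 508 per 10,000 in recipient cells, a ratio of 0.839 (0.829 to 0.850). None of 31 genes was above equality, against 8.84% of all genes, and 19 were below it, against 6.52% of all genes. The median log2 ratio was -0.24, beside 0.05 over all genes. Of these, 3 were called lower, against 3.88% of all genes, and none higher, against 5.45% of all genes. Egr3 had 52.0 CPM in donor and 135 CPM in recipient cells (0.387-fold, 0.285 to 0.522). Nfkbia had 1277 CPM in donor and 1952 CPM in recipient cells (0.654-fold, 0.612 to 0.6999), and Nr4a1 223 CPM in donor and 344 CPM in recipient cells (0.648-fold, 0.551 to 0.763). Fos differed 0.754-fold (0.726 to 0.784) and Junb 0.776-fold (0.748 to 0.805), while Jun had an interval that held equality (1.01-fold, 0.975 to 1.05). General capillary markers summed to 49.5 per 10,000 in donor and 38.0 per 10,000 in recipient venous-like cells, and Cdh5 had 1304 CPM in donor and 776 CPM in recipient cells. Their part in the difference was not tested.

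In alveolar type 1-like cells the sum was 155 per 10,000 in donor and 145 per 10,000 in recipient cells, a ratio of 1.07 (1.04 to 1.10), but the direction depended on the shared barcodes. With those left out of the donor library only, the ratio was 0.939, and with those left out of both libraries it was 1.63. Of 26 genes, 3 were called higher, against 4.29% of all genes, and none lower, against 2.19% of all genes. The count of higher genes was 11 without shared barcodes, 7 with the gate on all fixed markers, 6 with the stricter gate, 5 with no cell filter and 1 as a mean over cells. The share of all genes under each of these settings is not given, so these counts show only that the number moved. By the interval alone 10 were above equality, against 7.36% of all genes, and 2 below it, against 3.75% of all genes. Atf3 had 463 CPM in donor and 203 CPM in recipient cells (2.28-fold, 1.93 to 2.70), Ier5 84.4 CPM in donor and 26.9 CPM in recipient cells (3.15-fold, 2.04 to 4.76), and Zfp36 164 CPM in donor and 90.0 CPM in recipient cells (1.82-fold, 1.37 to 2.39). As a mean over cells the Zfp36 ratio was 0.902. Without shared barcodes these genes had 546, 102 and 190 CPM in donor cells and 114, 9.93 and 89.4 CPM in recipient cells, on 2 recipient UMIs for Ier5. The endothelial genes Cldn5, with 514 CPM in donor and 94.0 CPM in recipient cells, and Cdh5, with 198 CPM in donor and 26.5 CPM in recipient cells, moved with them, and free RNA was estimated at 17.3% of UMIs in donor and 9.59% in recipient cells. Their part in these calls was not tested.

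In pericyte-like cells the sum was 227 per 10,000 in donor and 224 per 10,000 in recipient cells, a ratio of 1.01 (0.988 to 1.04). Of 29 genes, 27 had an interval that held equality, 1 was above it, against 3.65% of all genes, and 1 below it, against 2.27% of all genes. 1 was called higher, against 2.58% of all genes, Maff with 51.6 CPM in donor and 21.8 CPM in recipient cells, on 15 donor UMIs. 1 was called lower, against 1.75% of all genes, Gadd45b with 17.2 CPM in donor and 53.1 CPM in recipient cells, on 5 donor UMIs.

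**Figure D4:**
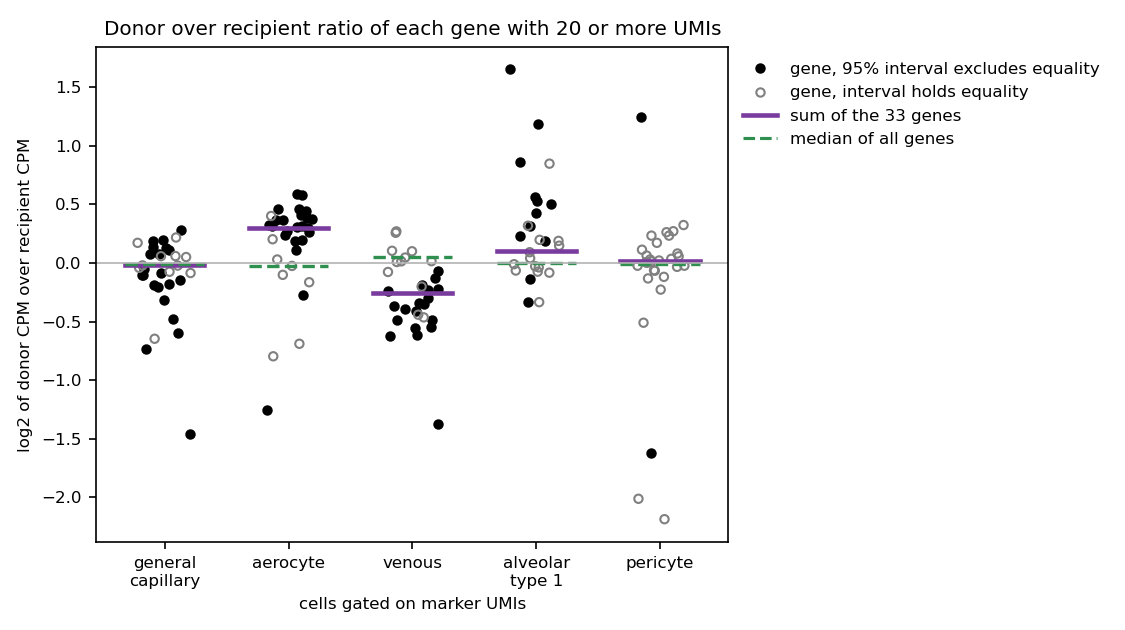
Log2 of donor CPM over recipient CPM for each gene with 20 or more UMIs, by cell type; filled points have a 95% interval of counting error that excludes equality, the solid bar is the ratio of the sums and the dashed bar the median of all genes. Most aerocyte-like points lie above 0 (sum ratio 1.23) and most venous-like points below it (sum ratio 0.839).

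Across cells of 1 type, the genes differed in how closely they followed the rest of the list. The values are Spearman correlations between a gene and the sum of the other genes in cells thinned to 2000 UMIs. The cells share library, pool and handling, and the values are descriptions. The genes also differed in abundance. Thinned donor general capillary-like cells had a mean of 8.29 UMIs of Junb, 4.62 of Fos and 0.714 of Zfp36l1. Thinned recipient pericyte-like cells had a mean of 0.307 UMIs of Dusp5. The part of abundance in the order of the genes was not tested. Junb followed the others closely in endothelial and pericyte-like cells, with 0.71 in 2441 donor and 0.71 in 397 recipient general capillary-like cells and 0.82 in 51 donor and 0.77 in 525 recipient pericyte-like cells. Fos reached 0.89 in donor and 0.82 in recipient pericyte-like cells, and 0.63 in donor and 0.57 in recipient general capillary-like cells. Zfp36l1 hardly followed in general capillary-like cells, with 0.10 in donor and 0.03 in recipient cells, and had -0.02 in donor and 0.20 in recipient pericyte-like cells. Dusp5, in pericyte-like cells, stood between Fos and Zfp36l1 at 0.25 in donor and 0.26 in recipient cells. Zfp36l1 varied by type, with -0.04 in donor and 0.315 in recipient venous-like cells. It had 0.37 in recipient lymphatic-like and 0.38 in recipient adventitial fibroblast-like cells.

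The correlations also differed between types. Dusp1 followed the list at 0.69 in donor and 0.67 in recipient pericyte-like cells but at -0.10 in 136 recipient myofibroblast-like cells. Ier3, with 0.50 in donor and 0.48 in recipient general capillary-like cells, had 0.29 in donor and 0.32 in recipient pericyte-like cells. Mean UMIs per thinned cell differed too. Dusp1 had 3.18 in donor and 3.22 in recipient pericyte-like cells and 1.45 in recipient myofibroblast-like cells. Ier3 had 7.14 in donor and 6.98 in recipient general capillary-like cells, and 1.10 in donor and 1.07 in recipient pericyte-like cells. The part of abundance in these differences was not tested. The summed level ran against the mitochondrial share of UMIs in each type, from -0.27 in recipient myofibroblast-like cells to -0.695 in recipient lymphatic-like cells, with -0.36 in donor and -0.38 in recipient general capillary-like cells. The part of RNA quality in these values was not tested.

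**Figure D5:**
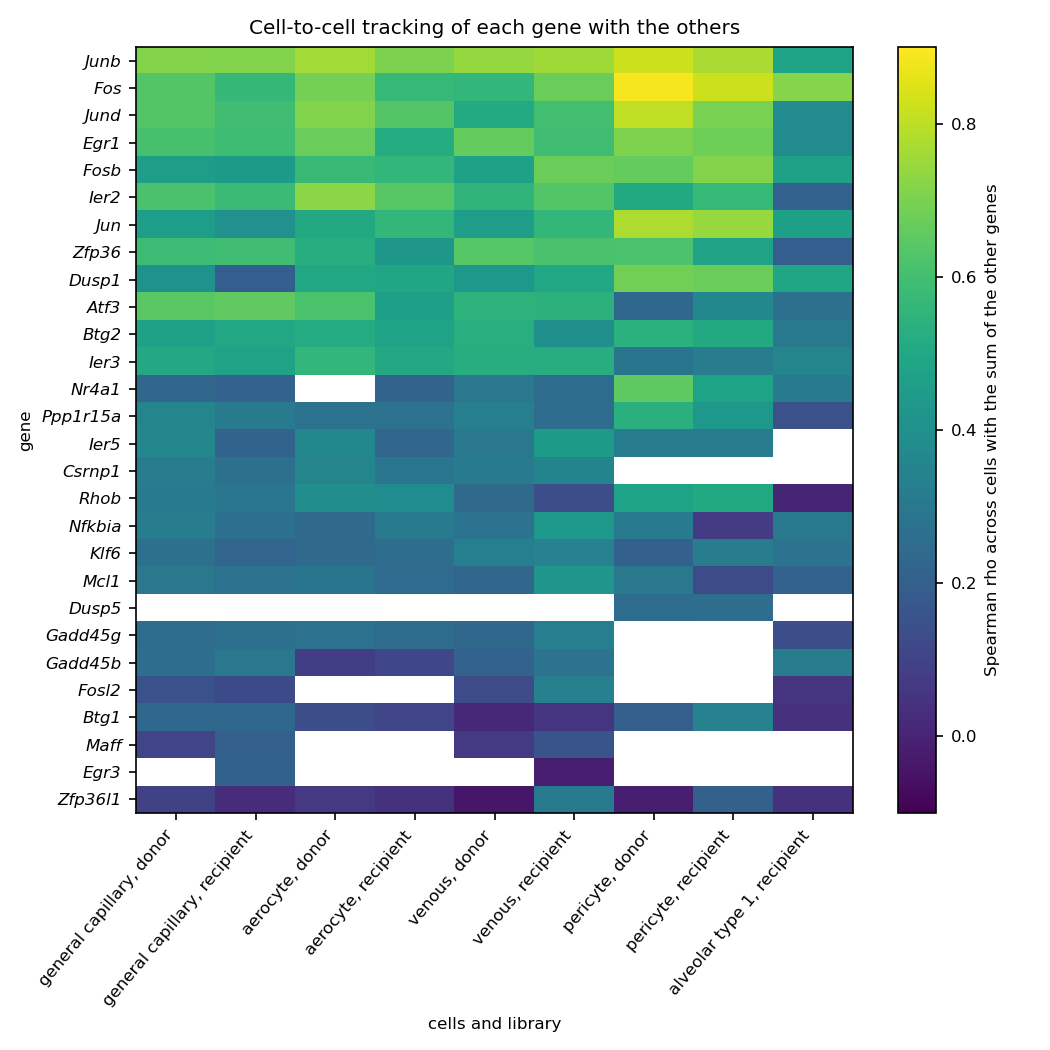
Spearman correlation across cells between each gene and the sum of the other genes, after thinning to 2000 UMIs per cell, donor columns left of recipient columns within a type; blank where under 10% of cells had a UMI. Junb and Fos are at the top, with Junb at 0.71 in donor and 0.71 in recipient general capillary-like cells, and Zfp36l1 is at the bottom with 0.10 and 0.03.

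A further 30 early and dissociation response genes served as a second list, to be read beside the shares of all genes given above for each type. In aerocyte-like cells 3 of 28 were called higher (Cebpd, Tnfaip3 and Bhlhe40) and 2 lower (Ccn2 and Cxcl1), and the list had its median log2 ratio at 0.16. In venous-like cells 2 of 26 were called higher and 6 lower, with a median of -0.21. In general capillary-like cells none of 29 was called higher and 2 were called lower (Gem and Cxcl1), with a median of -0.05. In alveolar type 1-like cells 8 of 24 were called higher, against 4.29% of all genes, and none lower, against 2.19% of all genes, among them Socs3, a cytokine signalling inhibitor, with 220 CPM in donor and 52.6 CPM in recipient cells, the factor Cebpd with 179 CPM in donor and 74.8 CPM in recipient cells, and the flow-responsive endothelial factor Klf2 with 364 CPM in donor and 171 CPM in recipient cells. Without shared barcodes Socs3 had 204 CPM in donor and 54.6 CPM in recipient cells and Klf2 407 CPM in donor and 99.3 CPM in recipient cells. The endothelial genes Cldn5 and Cdh5 were higher in these donor cells too, with the values given above, and their part in the calls was not tested. In pericyte-like cells the kinase gene Sgk1 was the 1 gene of 28 called higher, with 65.4 CPM in donor and 29.6 CPM in recipient cells, and the chemokine gene Cxcl1 the 1 called lower, with 75.8 CPM in donor and 159 CPM in recipient cells. Genes named for a count of 5 or fewer were named after their values were seen. Socs3 also followed the 33 genes from cell to cell, at 0.59 in donor and 0.56 in recipient general capillary-like cells and 0.69 in donor and 0.64 in recipient pericyte-like cells.

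Kinases and factors upstream of the early genes were counted as a further list. Of 23 such genes, none was called in aerocyte-like cells, against 1.46% of all genes higher and 3.65% lower, and 1 (Rps6ka1) was called higher and none lower in general capillary-like cells, against 3.66% of all genes higher and 6.5% lower. In venous-like cells 2 of 23 were called higher and 1 lower, against 5.45% of all genes higher and 3.88% lower. In alveolar type 1-like cells 3 of 21 were called higher and none lower, against 4.29% of all genes higher and 2.19% lower, and in pericyte-like cells 1 of 22 was called higher and none lower, against 2.58% of all genes higher and 1.75% lower. The median log2 ratio of this list was 0.13 in general capillary-like, -0.005 in aerocyte-like, 0.02 in venous-like, 0.22 in alveolar type 1-like and -0.09 in pericyte-like cells. Other feedback inhibitors are read beside the same shares of all genes. Of these, none of 12 was called in venous-like cells. In general capillary-like cells 1 of 14 was called higher and 2 lower, in aerocyte-like cells 1 of 13 higher, in alveolar type 1-like cells 2 of 11 higher and in pericyte-like cells 1 of 12 higher, which was Spry4 in both the aerocyte-like and the pericyte-like cells.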

How the data were processed

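Single-cell RNA was measured in 2 libraries, donor and recipient. The deposited matrices hold whole-number UMI counts per gene and barcode, and the authors' normalized values were not used. Counting on mm10 used Cell Ranger 4.0.0, per the file headers and the submitters' processing notes, whereas the labels' protocols name version 3.0.1. Barcodes more than 3 median absolute deviations from the median in genes, or above the median by as much in UMIs or mitochondrial share, were left out. Cells were assigned by at least 3 markers and 5 marker UMIs (4 markers for venous-like), with 3 times the UMIs of each other type, vessel types apart. Hopx, Inmt, Clec3b and Tbx2 were left out of the gates after their marker UMIs were seen. UMIs were summed per library and type and given as CPM (UMIs per 1000000) or per 10,000. With 1 library a group there is no test and no p-value; ratios carry exact conditional 95% intervals, levels exact Poisson intervals and shares exact Clopper-Pearson intervals, all for counting error only. Doublets marked with Scrublet in scanpy 1.11.5 were removed only as an alternative. Cells of 2000 UMIs or more were thinned for shares and correlations, so 98 of 125 donor alveolar type 1-like cells were too shallow. Free RNA was estimated from counts of other types' markers.

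The members and lists were chosen with earlier results of these data known. Full values are given for the 6 most abundant members, those called with at least 50 CPM in the higher library, and type-specific members; genes of other lists are named at 2-fold, at most 3 per list and type, apart from genes behind a count of 5 or fewer, named after their values were seen. The call rule was checked on simulated counts. Computation used Python 3.11.15, numpy 2.4.6, scipy 1.17.1 and pandas 2.3.3. Alternatives were no cell filter, a stricter gate, doublets removed, a mean over cells, another scaling, free RNA subtracted, other UMI minimums and fold limits, and shared barcodes left out; 2 were added after the data were seen, a gate on all fixed markers and shared barcodes left out of the donor library only.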

Additional observations from a re-analysis of the deposited data

Results flagged for a closer look

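The donor over recipient ratio of the summed level went opposite ways in different cell types of the same 2 libraries. It was 1.23 in aerocyte-like and 1.07 in alveolar type 1-like cells, but 0.839 in venous-like cells. It was close to 1 in general capillary-like cells, at 0.989 (0.982 to 0.996), and in pericyte-like cells, at 1.01 (0.988 to 1.04). Each group is 1 library, so the difference between types was not tested, and the alveolar type 1-like direction changed with the treatment of shared barcodes. Among the alternatives run, the aerocyte-like ratio stayed above 1 and the venous-like ratio below 1.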

How the results depend on the processing

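No paired analysis was possible because each group is 1 library. The summed ratio in aerocyte-like cells was 1.24 without shared barcodes and with a stricter gate, 1.25 under median gene scaling and with free RNA subtracted, 1.26 with the gate on all fixed markers and 1.27 as a mean over cells. In venous-like cells it was 0.825 with no cell filter, 0.814 without shared barcodes, 0.818 with the stricter gate and 0.811 under median gene scaling. In general capillary-like cells it was 0.982 without shared barcodes and 0.978 as a mean over cells. In alveolar type 1-like cells it reversed to 0.980 with no cell filter, 0.996 with free RNA subtracted and 0.939 with shared barcodes left out of the donor library only, and was 1.63 without shared barcodes and 1.04 as a mean over cells. In pericyte-like cells it was 0.891 with no cell filter and 1.04 without shared barcodes. The venous-like sum over the alveolar type 1-like sum in the donor library, 2.75, was 3.03 with no filter, 3.14 without shared barcodes in either form, 2.68 with all markers and 3.16 as a mean over cells. The myofibroblast-like sum over the alveolar type 1-like sum in the recipient library, 3.82, was 3.88, 6.52, 3.97 and 4.22 with no filter, without shared barcodes, with the stricter gate and as a mean over cells. Members called higher in aerocyte-like cells numbered 2 with no filter, all markers, a mean over cells, median gene scaling and either form of leaving out shared barcodes, and 0 at 2-fold; those called lower numbered 0 with all markers, a mean over cells or at least 100 UMIs. In alveolar type 1-like cells 7 were higher with all markers, 6 with the stricter gate, 5 with no filter, 11 without shared barcodes and 1 as a mean over cells, and 1 was lower with shared barcodes left out of the donor library only. Members called lower in general capillary-like cells numbered 1 at 2-fold, with no filter and without shared barcodes, and in venous-like cells 5 under median gene scaling and 1 at 2-fold. In pericyte-like cells 0 were higher at 100 UMIs or more and 0 were lower with the stricter gate. Type-specific members numbered 4 at 1.5-fold, 1 at 3-fold and 1 with shared barcodes left out of the donor library only, when Gadd45b was lost. Zfp36 in alveolar type 1-like cells reversed to 0.902 as a mean over cells. The cause of these moves was not tested, and the counts of members are given without the share of all genes under each setting. The donor alveolar type 1-like cells had a median of 1509 UMIs, and the donor pericyte-like values rest on 53 cells.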

Other observations

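Heat shock and metallothionein genes, often raised by tissue dissociation too, were read beside the same background shares. Of 14 heat shock genes, 1 was called higher in donor aerocyte-like and 1 in donor alveolar type 1-like cells (Dnajb1 in both, with 82.3 CPM in donor and 53.3 CPM in recipient aerocyte-like cells), 1 was called lower in general capillary-like cells (Hspa1b) and 1 in venous-like cells (Hspb1), and none was called in pericyte-like cells. These names were given after their values were seen. The metallothionein gene Mt1 had 24.1 CPM in donor and 85.9 CPM in recipient pericyte-like cells (0.281-fold, 0.112 to 0.587) and 0.574 CPM in donor and 20.3 CPM in recipient general capillary-like cells. Mt1 was also called lower in aerocyte-like (0.491-fold) and venous-like cells (0.221-fold), and Mt2 in pericyte-like cells (0.1875-fold). In general capillary-like cells fibroblast genes moved with Mt1. Col1a1 had 0.717 CPM in donor and 42.4 CPM in recipient cells, and Inmt 1.79 CPM in donor and 99.2 CPM in recipient cells. In pericyte-like cells Col1a1 was similar, with 200 CPM in donor and 217 CPM in recipient cells. Inmt had 6.89 CPM in donor and 92.7 CPM in recipient pericyte-like cells. The part of fibroblast RNA in the Mt1 differences was not tested.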
